A study of Mus musculus with 4 samples.

Results

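The 4 adult globin genes of the mouse, the alpha globins Hba-a1 and Hba-a2 and the beta globins Hbb-bs and Hbb-bt, were followed with Alas2 in lung cryosections profiled on Visium slides. These 5 genes were chosen by name and made up 5 of the 32285 genes in each table. C57BL/6J mice, about 8 wk old at the start, either breathed vaporized Peach Ice juice (70VG/30PG, from JUUL pens in whole body chambers) over 9 wk, on 5 days of each week and 4 h of each day (vaped, V) or were not vaped (NV). Each group held 2 mice, 1 male and 1 female, with 1 section of the upper pulmonary branches per mouse. A V against NV difference therefore rests on 2 mice per group, and sex, mouse and section cannot be told apart within a group.

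Haemoglobin is a tetramer of alpha and beta globin chains, each of which holds a haem. Circulating red cells have no nucleus, and their remaining RNA, which is richest in the youngest cells (reticulocytes), is mostly globin mRNA. Alas2 is the erythroid enzyme of the first step of haem synthesis, and Alas1 does the same step in other tissues. In a section of inflated lung, globin RNA is therefore taken here as a marker of blood. A spot's level of globin would then reflect how much blood lay under it as well as the RNA left in that blood. Other sources of globin RNA were not tested. Fewer red cells and less RNA per red cell cannot be told apart in spots that hold many cells.

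By the GENCODE annotation of GRCm38, Hba-a1 lies on the forward strand at chr11:32283511-32284465 and Hba-a2 at chr11:32296489-32297298. Hbb-bs lies on the reverse strand at chr7:103826534-103828096 and Hbb-bt at chr7:103812524-103813996. Each globin transcript has 3 exons. Alas2 lies on the forward strand at chrX:150547375-150570638 with 11 exons, and it overlaps Apex2 and Mir3620 on the reverse strand. No other annotated gene overlaps the globin genes.

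The 120 bases before the RefSeq starts (GRCm38.p6) are shown for 1 alpha gene, both beta genes and Alas2, because these promoters drive genes whose UMIs were measured together. All 5 genes had an entry. Capitals mark, on either strand, the CACCC box bound by erythroid Klf factors, the box spelled CCAAT, the motif spelled ATATAA that was taken as a start-site box, and the letters GATAA read by the erythroid factor Gata1. The windows lie at chr11:32296372-32296491 (Hba-a2, forward), chr7:103827929-103828048 (Hbb-bs, reverse), chr7:103813924-103814043 (Hbb-bt, reverse) and chrX:150547297-150547416 (Alas2, forward). RefSeq and GENCODE starts differ. By the GENCODE coordinates the Hbb-bs window lies wholly within the gene. Those of Hbb-bt and Alas2 overlap their genes in part, and that of Hba-a2 by its last bases only.
Hba-a2: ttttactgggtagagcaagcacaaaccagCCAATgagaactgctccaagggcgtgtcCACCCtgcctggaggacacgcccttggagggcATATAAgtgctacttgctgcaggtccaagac
Hbb-bs: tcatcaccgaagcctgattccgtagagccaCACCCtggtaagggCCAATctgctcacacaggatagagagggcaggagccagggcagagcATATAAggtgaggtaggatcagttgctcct
Hbb-bt: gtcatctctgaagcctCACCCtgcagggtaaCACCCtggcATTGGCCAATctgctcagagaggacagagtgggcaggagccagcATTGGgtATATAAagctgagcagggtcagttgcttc
Alas2: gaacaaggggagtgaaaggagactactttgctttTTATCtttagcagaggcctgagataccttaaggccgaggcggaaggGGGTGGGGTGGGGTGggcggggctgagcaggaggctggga

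The CACCC box, the CCAAT box and the ATATAA motif were found in all 4 globin windows, whereas the Alas2 window held CACCC 3 times and GATAA once, all on the reverse strand. In windows of this length before all 32851 RefSeq starts, the CACCC box was found in 31.7%, the CCAAT box in 21.3%, the GATAA motif in 10.5% and the ATATAA motif in 4.47%. The globin genes held GATAA as well, further upstream than the bases shown. Within 250 bases of the start, each of the 4 had it once, and 22.6% of all windows of 250 bases held it. In Hbb-bt, a CCAAT box on the reverse strand directly adjoins the one on the forward strand. The 250 bases before the starts of Hba-a1 and Hba-a2 matched at 247 positions with no mismatch once their offset was allowed for, so the alpha window stands for both genes. Those of Hbb-bs and Hbb-bt matched at 178 of 257 aligned positions (69.3%).

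The coding sequences of each pair are close to identical, which bears on the values given for a single gene. Those of Hba-a1 and Hba-a2 differ at 1 of 429 bases and those of Hbb-bs and Hbb-bt at 1 of 444, and in both pairs the translations are identical. After the stop codon, the alpha transcripts have no mismatch over their shared 74 bases, while the beta transcripts match at 93 of 134 aligned positions (69.4%). Visium captures polyadenylated RNA from its 3′ end, and of the 90-base windows within the last 300 bases, 57.3% of those of Hba-a1 were also found in Hba-a2, against 24.6% of those of Hbb-bs found in Hbb-bt. SpaceRanger counts a read only where it can be placed in 1 gene, so the split within the alpha pair rests on fewer positions than that within the beta pair. Counts of single alpha genes are uncertain for that reason, and sums over a pair exclude reads that fit both genes equally well. UMIs are tagged at the 3′ end and were not divided by transcript length.

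The sections differed in what they held. They had 842 (male NV), 473 (female NV), 1565 (male V) and 2053 (female V) tissue spots, between 6957392 and 34308556 UMIs (unique molecules counted) and a median of 6259 to 11355 UMIs per spot. By marker genes, parenchyma (spots with alveolar markers at or above a set level) made up 684, 348, 1564 and 1620 spots in the same order. Cardiac muscle made up 142, 57, 0 and 159, and other tissue the remaining 16, 68, 1 and 274. The male V section was thus almost wholly parenchyma, with cardiac muscle markers summing to 18.2 UMIs per 1000000 UMIs (CPM) against 3673 to 7015 in the other 3 sections. Parenchyma spots were not free of other tissue. In their middle quintile by beta globin, cardiac markers had 3180, 1982, 15.8 and 1409 CPM (male NV, female NV, male V, female V). Markers of airway club cells had 9489, 1202, 288 and 9499. Values within parenchyma therefore do not compare like tissue. Between 277 and 1167 spot barcodes recurred between pairs of sections, since Visium barcodes name positions on a slide. Because the male V section stands apart, V against NV values without it or within parenchyma are given beside the others.

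Globin made up 1.17% of all UMIs in the male NV section, 1.23% in the female NV, 2.25% in the male V and 1.37% in the female V. In CPM of the whole section, the summed level of the 4 globins was 11716 and 12272 in the male and female NV sections (11994 ± 393, SD, n = 2) and 22492 and 13718 in the male and female V sections (18105 ± 6204, SD, n = 2). Both V sections lay above both NV sections, and the male V section carried most of the difference. The difference of mean log2 levels was 0.55 (exact permutation test over mice, two-sided, p = 0.333, the smallest that 2 against 2 mice can give). Without the male V mouse it was 0.19. Markers of other blood cells each had their own order of sections. The summed platelet markers were 122 and 115 CPM in the male and female NV and 39.1 and 101 in the male and female V, and the neutrophil markers 157 and 163 in NV and 594 and 77.8 in V. The male V section was thus lowest in the first and highest in the second, and the part of blood content in the globin values was not tested.

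Hbb-bs, the beta globin gene with more UMIs in each section, had 4759 and 5901 CPM in the male and female NV sections and 10264 and 6999 in the male and female V sections. The groups did not overlap for Hbb-bs, although the female V lay closer to the female NV than to the male V. Hbb-bt, the beta globin gene with fewer UMIs, had 978 and 958 CPM in NV and 1812 and 1150 in V. The groups did not overlap here either, and the 2 NV values were nearly the same.

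Hba-a1 had 2373 and 2571 CPM in the male and female NV sections and 4634 and 2539 in the male and female V sections. Hba-a2 had 3606 and 2841 in NV and 5782 and 3030 in V. For both alpha globin genes the groups overlapped, as the female V lay below the female NV for Hba-a1 and below the male NV for Hba-a2. The male V section was highest for each of the 4 globin genes.

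Alas2 was counted 294, 211, 546 and 1252 times in the male NV, female NV, male V and female V sections, or 31.3, 30.3, 46.0 and 36.5 CPM. Both V sections lay above both NV sections. Set against globin, Alas2 had 2.67 UMIs per 1000 globin UMIs in the male NV, 2.47 in the female NV, 2.04 in the male V and 2.66 in the female V. The male V section was thus highest in Alas2 but lowest in Alas2 per globin UMI.

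**Figure D1:**
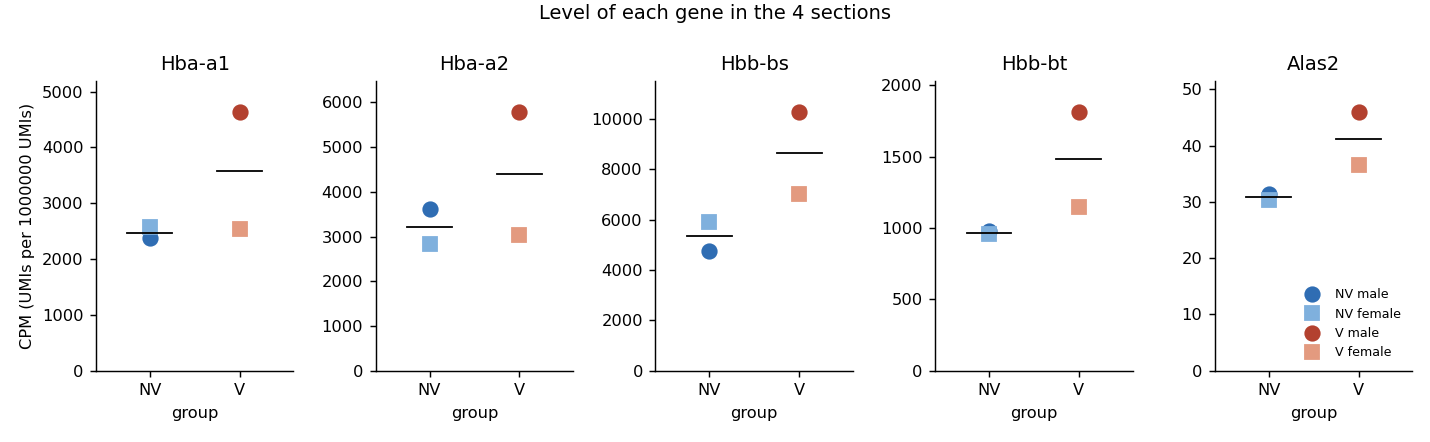
Level of each gene in CPM (vertical axes, starting at 0) in NV and V, with 1 point per section (circles male, squares female) and a line at the mean of the 2 mice. The male V section is highest for all 5 genes, and the 2 groups overlap for Hba-a1 and Hba-a2 but not for Hbb-bs, Hbb-bt and Alas2.

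None of the 5 genes passed the test of V against NV. The edgeR quasi-likelihood test on sums per mouse gave log2 fold changes of 0.65 ± 0.32 (SE) for Hbb-bs, 0.57 ± 0.29 for Hbb-bt, 0.48 ± 0.35 for Hba-a1, 0.39 ± 0.38 for Hba-a2 and 0.38 ± 0.15 for Alas2, each with a Benjamini-Hochberg adjusted p of 0.9997. Of 14570 genes tested, 0% (0 genes) were called (adjusted p under 0.05, with a log2 fold change beyond 0.25 in either direction), 248 genes had an unadjusted p under 0.05, and DESeq2 called 7, none of them a globin gene or Alas2. For 3 of the 5 genes both V sections lay above both NV sections in CPM, a pattern found in 12.6% of all genes tested, and for 0 of the 5 both V sections lay below, as they did in 14.4% of genes tested. Without the male V mouse the log2 fold changes were 0.47 for Hbb-bs, 0.32 for Hbb-bt, 0.11 for Hba-a1, -0.0145 for Hba-a2 and 0.32 for Alas2. The median log2 fold change of the 5 genes was 0.48, beside 0.03 for all genes tested. In parenchyma spots alone, where 0% of 14348 genes were called, the 5 log2 fold changes were 0.25 to 0.50.

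Within parenchyma the groups overlapped in the summed globin level, and its difference was smaller than over whole sections. Within parenchyma spots the summed globin level was 12788 CPM in the male NV, 18208 in the female NV, 22492 in the male V and 17983 in the female V, so that the female V lay just below the female NV while the male V lay well above the male NV. The difference of mean log2 was 0.40, against 0.55 over whole sections (exact permutation test, two-sided, p = 0.667). Gene by gene, both V sections still lay above both NV sections for Hbb-bs (5185 and 8818 CPM in NV, 10264 and 9293 in V, male and female). So they did for Hbb-bt (1072 and 1462, 1812 and 1565) and Alas2 (33.7 and 44.6, 46.0 and 47.5), but not for Hba-a1 and Hba-a2. The share of all genes with this pattern within parenchyma was not computed. Cardiac muscle spots held less globin per UMI counted than parenchyma spots of the same section, at 0.679 of the parenchyma level in the male NV, 0.313 in the female NV and 0.462 in the female V. Alas2 followed, at 0.754, 0.262 and 0.456 of its parenchyma level. The order depended on the denominator. Per spot, cardiac muscle held 120, 171 and 259 globin UMIs in the same sections, against 135, 197 and 207 in parenchyma. Set against capillary endothelium markers, cardiac muscle held 13.0, 9.14 and 11.5 globin UMIs per marker UMI, against 5.99, 7.75 and 8.12 in parenchyma. Per UMI of capillary endothelium markers, the whole sections held 6.52 (male NV), 7.60 (female NV), 8.54 (male V) and 8.96 (female V) globin UMIs, and both V values were again the higher ones (difference of mean log2 0.31, exact permutation test, two-sided, p = 0.333). The part of tissue composition in the V against NV values was not tested further.

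The balance of alpha to beta globin UMIs ranged from 0.683 to 1.04 over the 4 sections. The intervals given here cover counting error only, not the spread between mice. The ratio was 1.04 in the male NV section (95% exact Clopper-Pearson interval 1.03 to 1.05), 0.789 in the female NV (0.778 to 0.800), 0.863 in the male V (0.856 to 0.869) and 0.683 in the female V (0.679 to 0.687). The male lay above the female in each group, and the V section lay below the NV section of the same sex, at 0.828 of it in males and 0.866 in females. The groups overlapped, as the male V lay above the female NV, and the difference of mean log2 ratios was -0.24 (exact permutation test, two-sided, p = 0.667). Without the male NV mouse the difference was -0.0394, and without the female V mouse it was -0.0722. It was -0.41 without the male V mouse, -0.44 without the female NV mouse and -0.25 within parenchyma spots. Since reads common to a pair can be lost unequally, the ratio of UMIs need not be that of the mRNAs.

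The ratio of Hbb-bs to Hbb-bt was 4.87 in the male NV (4.76 to 4.98), 6.16 in the female NV (6.0 to 6.32), 5.66 in the male V (5.58 to 5.75) and 6.09 in the female V (6.02 to 6.15). Hbb-bs thus exceeded Hbb-bt in every section, and the NV mice lay on either side of both V mice. The difference of mean log2 ratios was 0.10 (exact permutation test, two-sided, p = 1), and it turned to -0.0685 without the male NV mouse. This difference was 0.15 without the male V mouse and 0.10 within parenchyma spots. The ratio of Hba-a1 to Hba-a2 was 0.658 in the male NV (0.647 to 0.669), 0.905 in the female NV (0.887 to 0.924), 0.802 in the male V (0.793 to 0.811) and 0.838 in the female V (0.831 to 0.846). Here too the NV mice were the lowest and the highest, and the difference of mean log2 ratios was 0.09 (exact permutation test, two-sided, p = 1), or -0.14 without the male NV mouse. This difference was 0.12 without the male V mouse and 0.11 within parenchyma spots.

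**Figure D2:**
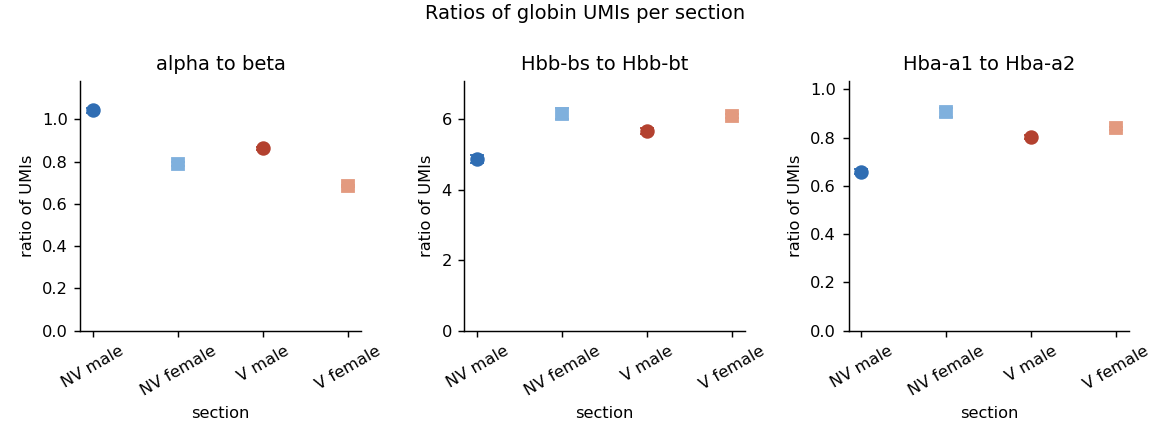
Ratios of globin UMIs in each section (vertical axes, from 0), with bars for the 95% exact Clopper-Pearson interval, most of them smaller than the symbol. The alpha to beta ratio is lower in V than in NV within each sex and higher in the male than in the female of each group, while the male NV is lowest for both paralogue ratios.

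Globin UMIs did not keep pace with spot depth in 3 of the 4 sections. The slope of log globin UMIs on log of the other UMIs of a spot, which is 1 where globin is a constant share, was 0.610 in the male NV, 0.404 in the female NV, 0.930 in the male V and 0.474 in the female V (Poisson fit over spots). Expressed as a level, the deepest tertile of spots held 0.635, 0.393, 0.955 and 0.415 of the globin per UMI counted of the shallowest tertile, in the same order. In the deepest decile of spots the level was 7245, 4316, 21162 and 5551 CPM, against 17902, 18777, 24027 and 20235 in the shallowest decile. Capillary endothelium markers had slopes of 0.836 and 0.614 in the male and female NV and 1.01 and 0.579 in the male and female V, and so were also a smaller share of deep spots in 3 sections.

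Part of this dependence went with the tissue under the spot. Within parenchyma spots the globin slopes were 0.758 (male NV), 0.814 (female NV), 0.930 (male V) and 0.677 (female V). Those of the male NV, female NV and female V were nearer to 1 than over all spots, while the male V had 0.930 in both. Cardiac muscle and other tissue spots were both left out of these fits. Other tissue held 4749 CPM of globin in the female NV and 8770 in the female V, against 5695 and 8316 in cardiac muscle. The mean slope of V exceeded that of NV by 0.20 over all spots and by 0.02 within parenchyma (exact permutation test, two-sided, p = 0.667 and p = 1), and over all spots it was -0.0328 without the male V mouse. With least squares on log2 values in place of the Poisson fit, the difference over all spots was 0.0916, and the slope of the female NV was 0.618. The slope for each gene separately over all spots lay between 0.365 for Hba-a1 and 0.651 for Hbb-bs in the 2 NV sections.

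**Figure D3:**
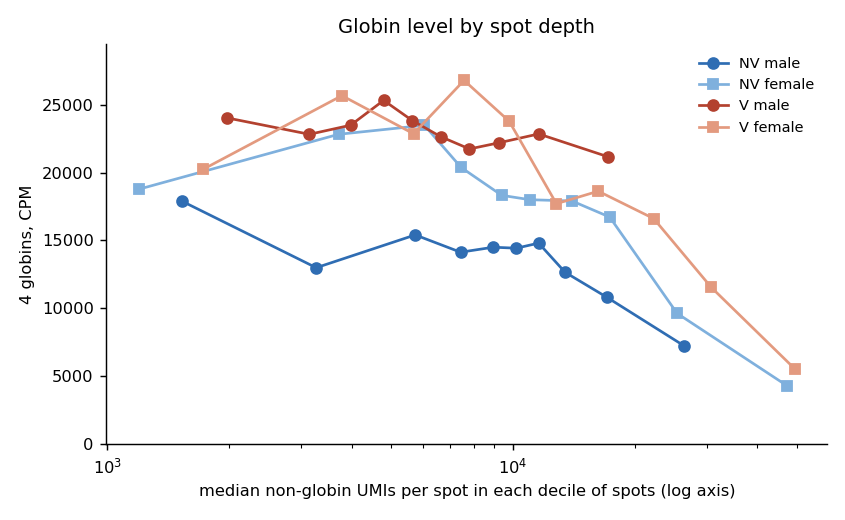
Summed level of the 4 globins in CPM (vertical axis) against the median non-globin UMIs per spot (horizontal log axis), for deciles of spots ordered by depth in each section. The male V section stays between 21162 and 25316 across the depths, and the other 3 sections are lowest in their deepest decile.

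The alpha to beta ratio also moved with depth. From the shallowest to the deepest tertile of parenchyma spots it went from 1.15 to 0.974 in the male NV, from 0.877 to 0.722 in the female NV, from 0.895 to 0.851 in the male V and from 0.719 to 0.631 in the female V. The direction was the same in 4 of 4 sections. The order of the sections in this ratio was the same in the shallow and deep tertiles, with the female V lowest and the male NV highest. The Hba-a1 to Hba-a2 ratio of parenchyma spots went the other way by mostly small steps, from 0.634 to 0.643 in the male NV, from 0.831 to 0.955 in the female NV, from 0.788 to 0.805 in the male V and from 0.813 to 0.831 in the female V. Over all spots this direction did not hold in 2 sections, with 0.662 to 0.657 in the male NV and 0.843 to 0.821 in the female V. The parenchyma spots of the female V were highest in the middle tertile, at 0.870. Steps in the male NV, male V and female V were smaller than the counting interval of the shallow tertile over all spots. Those intervals were 0.635 to 0.691, 0.766 to 0.813 and 0.823 to 0.863.

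Within a section, globin was unevenly spread over spots. The coefficient of variation was taken on UMIs around a constant share of spot depth, with Poisson counting error subtracted, so that deep spots weigh most. For globin it was 0.866 in the male NV, 1.04 in the female NV, 0.656 in the male V and 1.04 in the female V. The median gene with at least 1000 UMIs in the section had 0.371, 0.428, 0.235 and 0.387. The globins varied more than 91.4%, 90.8%, 99.2% and 95.8% of those genes. As these were 1461, 1044, 2249 and 5603 genes, the set compared differed between sections. The 95th percentile of the level was 9.62, 22.3, 5.07 and 19.5 times the 5th percentile. The 5% of spots richest in globin held 17.3%, 19.4%, 15.7% and 18.7% of globin UMIs but 3.92%, 3.38%, 5.10% and 3.19% of all UMIs. The male V section had the lowest coefficient of variation and the smallest percentile ratio of the 4, but it was also the section where globins varied more than the largest share of other genes.

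Nearly every spot held globin RNA. No globin UMI was found in 4 of 842 spots of the male NV, 0 of 473 of the female NV, 0 of 1565 of the male V and 1 of 2053 of the female V. A count of 0 allows a share of up to 0.634% of spots in the female NV and 0.192% in the male V. A UMI of Alas2 was found in 25.9%, 29.2%, 25.6% and 35.8% of spots. After each spot was thinned to 3000 UMIs and shallower spots (52 to 224 per section) were left out, the shares for Alas2 were 10.8% (8.65% to 13.3%) in the male NV, 9.26% (6.67% to 12.4%) in the female NV, 12.9% (11.2% to 14.8%) in the male V and 12.2% (10.7% to 13.8%) in the female V. These intervals cover counting error over spots only and overlap between all 4 sections. Both V shares lay above both NV shares, with means 2.52 percentage points apart (exact permutation test over mice, two-sided, p = 0.333). RNA that spreads between neighbouring spots can add to such shares, and its part was not tested.

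The 5 genes went together over spots. As a description over the 473 to 2053 spots of a section, which share their library and blood supply, Pearson's r between the log levels of Hba-a1 and Hba-a2 was 0.74 to 0.87, between Hbb-bs and Hbb-bt 0.70 to 0.84, and between the alpha and beta sums 0.72 to 0.93. With Alas2, which averages under 1 UMI per spot, the summed globins had r of 0.30 to 0.47.

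Alas2 was concentrated in the same spots as globin, and so were Bpgm and Tent5c by a smaller fold. Parenchyma spots of each section were ordered by their beta globin level, and the highest quintile was set against the lowest. Alas2 was 4.13-fold higher in the highest quintile in the male NV (95% exact interval 2.75 to 6.36), 5.15-fold in the female NV (3.0 to 9.33), 4.08-fold in the male V (3.08 to 5.46) and 7.44-fold in the female V (5.87 to 9.53). The alpha globins, which did not order the spots, were 4.30, 6.13, 3.81 and 8.40-fold higher. The fold for Alas2 was therefore close to that for alpha globin in each section. These intervals cover counting error only, since spots of a section are not replicates.

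Of the 11 erythroid genes with at least 400 UMIs in parenchyma spots, 2 had an interval above 1 in all 4 sections. Among all 10097 genes with that many UMIs, globins aside, 9 did (0.0891%), Alas2 and these 2 included, and 60 (0.594%) did in 3 or 4 sections. Bpgm, the enzyme that makes 2,3-bisphosphoglycerate and so lowers the oxygen affinity of haemoglobin, was 1.76, 2.07, 1.93 and 2.21-fold higher in the globin-rich quintile in the male NV, female NV, male V and female V. Tent5c, a poly(A) polymerase of the late erythroid lineage among others, was 1.77, 2.47, 3.06 and 2.33-fold higher. Bnip3l, which clears mitochondria from maturing red cells, had folds of 1.02 to 1.29, with an interval above 1 in 3 sections.

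The genes of haem synthesis that all tissues use had smaller folds than Alas2 across the same quintiles. Of 7 haem synthesis genes with at least 400 UMIs, 0 had an interval above 1 in all 4 sections, although Ppox, with few UMIs, ranged from 0.474 to 1.80. Among all 10097 genes with that many UMIs only 0.0891% had one, so this count does not set the list apart. Fech, which inserts iron into the porphyrin ring, had folds of 0.986 to 1.46, with an interval above 1 in 3 sections, and Alas1 had folds of 0.786 to 0.964, with an interval below 1 in 2. None of 10 genes of haemoglobin and iron handling, such as Hmox1 (haem oxygenase, 0.616 to 1.15), Fth1 (ferritin heavy chain, 0.992 to 1.03) and Blvrb (0.895 to 1.03), had an interval above 1 in 3 or more sections. Only 0.594% of all 10097 genes had one, so that count does not set this list apart either. Tfrc, the transferrin receptor that supplies iron to erythroblasts, had folds of 0.729 to 1.33.

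Markers of other cells had folds nearer to 1 than Alas2 across the same quintiles. In the male NV, female NV, male V and female V, capillary endothelium markers had folds of 1.16, 1.09, 1.06 and 1.43 and large vessel markers 0.874, 0.820, 0.962 and 0.926. Platelet markers had folds of 1.06, 0.775, 1.27 and 1.06, and neutrophil markers 1.72, 0.808, 1.02 and 1.11. The median depth of spots in the globin-rich quintile was 0.713 to 0.905 of that in the globin-poor quintile.

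**Figure D4:**
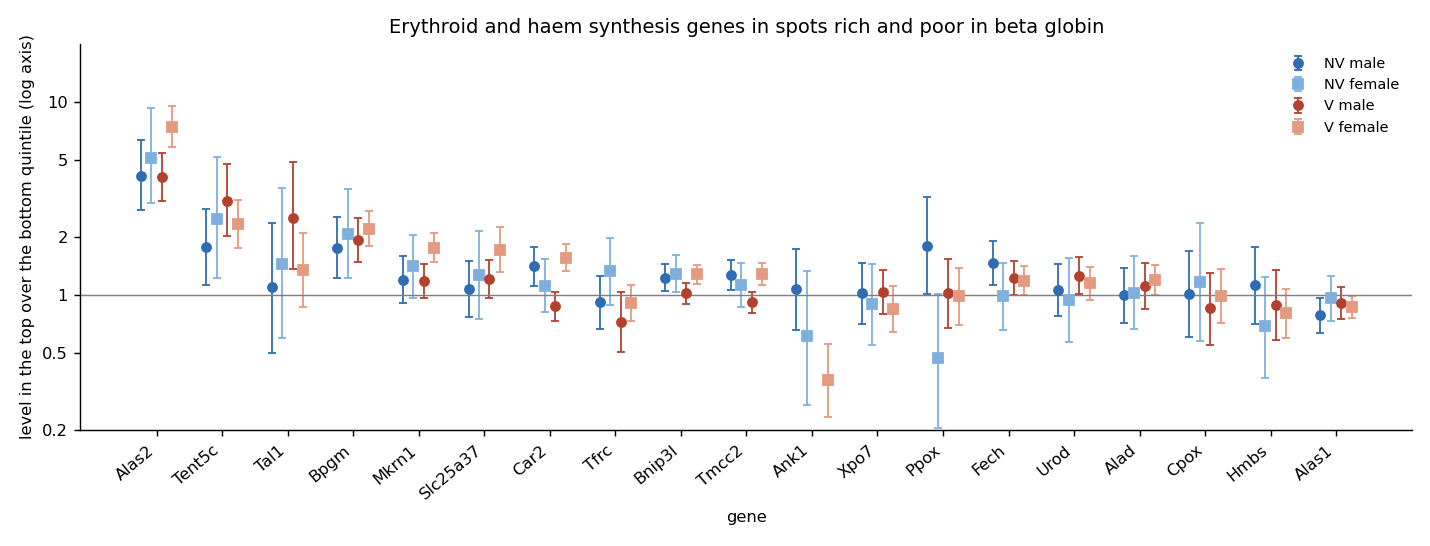
Level of each gene in the quintile of parenchyma spots with the most beta globin over that in the quintile with the least (vertical log axis), for Alas2, 11 erythroid genes (Tent5c to Xpo7) and 7 haem synthesis genes (Ppox to Alas1), per section, with 95% exact intervals for counting error. The whole intervals of Alas2, Tent5c and Bpgm lie above 1 in all 4 sections. Ank1 in the male V, with 1 UMI against 0, has no point.

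Several genes of nucleated red cell precursors had few UMIs, while others of the list did not. Over all 4 sections, Slc4a1 (the anion exchanger band 3) had 73 UMIs, Gata1 28, Klf1 6, Hemgn 4 and Rhag 0. Tfrc had 2521, Ank1 2029, Tal1 620 and Sptb 491, and in the male V section Ank1 and Sptb had 6 and 10. Bpgm had 2391. Of the 23 erythroid genes considered, 14 passed the filter on low counts, with a median log2 fold change of 0.04. Of those, 0 were called in V against NV in either direction, as were 0% of all 14570 genes tested.

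The paralogue ratios were not constant from spot to spot. With parenchyma spots ordered by beta globin, which does not enter the alpha ratio, Hba-a1 to Hba-a2 was higher in the highest than in the lowest quintile in 4 of 4 sections. It went from 0.518 (0.490 to 0.547) to 0.725 (0.704 to 0.746) in the male NV and from 0.705 (0.653 to 0.761) to 1.05 (1.02 to 1.09) in the female NV. In the male V it went from 0.667 (0.645 to 0.689) to 0.910 (0.894 to 0.926), and in the female V from 0.610 (0.587 to 0.635) to 0.961 (0.945 to 0.976). In the globin-rich spots of the female NV, Hba-a1 thus exceeded Hba-a2, which it did in no section as a whole. At matched depth, within the middle tertile of parenchyma spots by depth, the highest quintile still had 1.36, 1.47, 1.25 and 1.55 times the ratio of the lowest (male NV, female NV, male V, female V).

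The beta pair moved the other way and by less. With parenchyma spots ordered by alpha globin, Hbb-bs to Hbb-bt went from 5.60 (5.20 to 6.04) in the lowest to 4.38 (4.22 to 4.54) in the highest quintile in the male NV and from 6.41 (5.83 to 7.06) to 5.88 (5.63 to 6.15) in the female NV. It went from 5.96 (5.71 to 6.22) to 5.48 (5.36 to 5.61) in the male V and from 6.19 (5.93 to 6.47) to 5.68 (5.57 to 5.79) in the female V. The intervals of the end quintiles overlapped in the female NV only. At matched depth the ratio of the end quintiles was 0.818, 0.714, 0.938 and 1.01, so that the female V no longer showed a lower ratio in globin-rich spots.

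**Figure D5:**
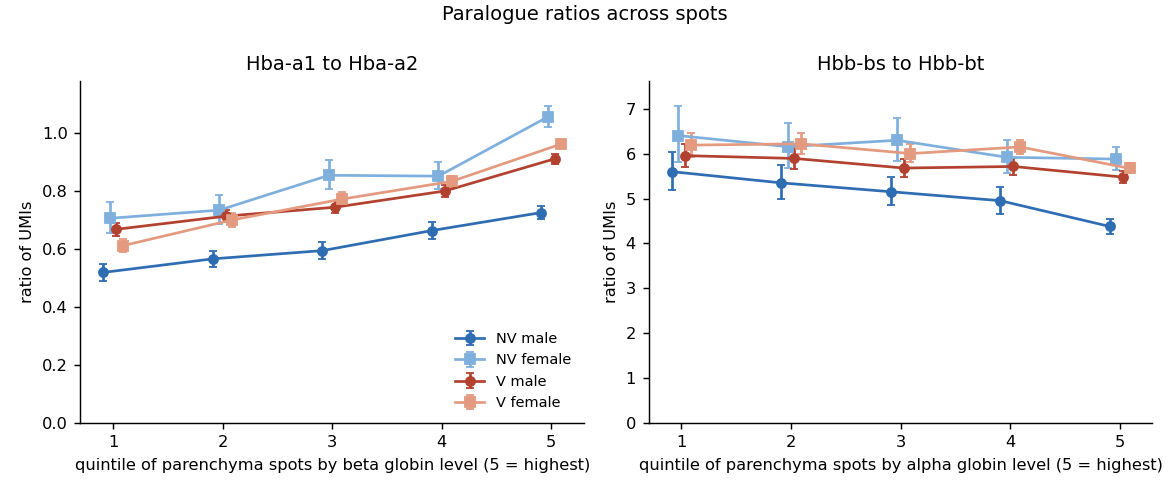
Ratio of Hba-a1 to Hba-a2 UMIs across quintiles of parenchyma spots by beta globin level (left) and of Hbb-bs to Hbb-bt across quintiles by alpha globin level (right), with 95% exact intervals for counting error, vertical axes from 0. The alpha ratio is highest in the quintile with the most beta globin in each of the 4 sections, and the beta ratio is lowest in the quintile with the most alpha globin.

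The embryonic and minor globin genes were at or near 0. The embryonic genes Hba-x and Hbb-bh1 had 1 UMI each over all sections, and Hbb-y and Hbb-bh2 had 0. The theta-like genes Hbq1a and Hbq1b had 26 and 18 UMIs. None of the 6 other globin genes in the tables passed the filter on low counts. Among globins of other tissues, Mb (myoglobin of heart muscle) had 15389, 10583, 6 and 30929 UMIs in the male NV, female NV, male V and female V sections. It was thus high in the same sections that held cardiac muscle spots. Of 3 globins of other tissues, 0 were called, as were 0% of all 14570 genes tested.

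Like Alas2, no other gene of haem synthesis passed the test of V against NV, in which 0% of all 14570 genes tested were called. The counts of 0 below therefore do not set these lists apart. All 8 genes were tested and 0 were called in either direction, with a median log2 fold change of -0.08. The 3 with the most UMIs were Alas1 (log2 fold change -0.17 ± 0.43, SE), Fech (-0.01 ± 0.20) and Alad (0.18 ± 0.27). Of 11 tested genes of haemoglobin and iron handling, 0 were called, with a median of 0.03 and values of 0.19 ± 0.26 for Fth1, 0.14 ± 0.28 for Ftl1 and -0.37 ± 0.41 for Hp (haptoglobin), the 3 with the most UMIs. Among the erythroid genes, Bnip3l (0.08 ± 0.20), Tmcc2 (0.29 ± 0.43) and Car2 (0.16 ± 0.30) had the most UMIs. Bpgm and Tent5c, which lay with globin within sections, had log2 fold changes of 0.31 ± 0.22 and -0.03 ± 0.25 between groups (edgeR, adjusted p of 0.9997 each).

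Over spots, 5638 genes with at least 200 UMIs in every section were ranked by their mean Pearson's r with the summed globins across the 4 sections. The 6 most alike were Gm42418 (mean r 0.32), Sftpc (0.32), Ager (0.26), Sftpb (0.25), Calcrl (0.23) and Actb (0.23). Sftpc and Sftpb (surfactant proteins) and Ager (alveolar type I cells) mark alveoli, and in the male V section, almost all parenchyma, their r was 0.03, 0.04 and -0.04. Gm42418 alone of the 6 stayed above 0.25 in each section (0.27 to 0.39). Cycs and Cox5a, genes of mitochondrial respiration, were the least alike (-0.21 and -0.20). Over the 4 sections, summed cardiac muscle markers had r of -0.38 to 0.02 with globin and brown fat markers -0.43 to -0.04. For comparison, Alas2 had a mean r of 0.36.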

How the data were processed

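The UMI counts of each gene in each spot over tissue, as deposited by the authors, were used without change. Per the authors' methods, SpaceRanger aligned reads to the 10x reference mm10-2020-A. The Seurat normalization and integration of the study do not enter these counts. All deposited spots were used. Levels are UMIs per 1000000 UMIs of the section or set of spots (CPM), except in quintiles and slopes, where globin UMIs were taken out of the denominator. Counts were summed per mouse and tested with edgeR 4.0.16 in R 4.3.3 (TMM, filterByExpr, quasi-likelihood test, adjusted p under 0.05 and log2 fold change over 0.25 in size), with the SE as the size of the fold change over the square root of F. edgeR's test was run on simulated data with known changes. DESeq2 1.42.0 was an alternative.

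Parenchyma spots had at least 50% of the all-spot level of the markers Sftpc, Sftpb, Hopx, Cldn18, Tmem100 and Calcrl. Of the remaining spots, those above 5000 CPM of the cardiac markers Myh7, Myl7, Nppa, Pln, Ryr2 and Tnni3 were called cardiac muscle. Intervals are 95% exact and, since amplification and capture are not covered, hold for counting error only. With 1 section per mouse, technical and biological spread cannot be told apart.

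The genes, lists and comparisons were chosen with earlier results of these data known. Named genes were the 5 genes of interest, the 3 genes with the most UMIs of each list, called genes, and the 6 genes most alike over spots. Other genes, such as Bpgm, Tent5c, Klf1 and Gata1, were named after their values were seen, as were the comparisons across quintiles of spots. Some genes of the erythroid list are not reported here and enter none of its counts.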

Additional observations from a re-analysis of the deposited data

Results flagged for a closer look

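In 4 quantities the V section lay on one side of the NV section in males and on the other in females. The difference between sexes was not tested, since 1 mouse per sex and group leaves no replicate. For Hba-a1 the log2 ratio of V over NV was 0.97 in males and -0.0182 in females. For Alas2 per 1000 globin UMIs it was -0.39 in males and 0.11 in females. For Hbb-bs to Hbb-bt it was 0.22 in males and -0.0167 in females, and for Hba-a1 to Hba-a2 0.28 in males and -0.11 in females.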

How the results depend on the processing

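No globin gene and not Alas2 was called under any alternative run. Over the 9 alternatives that kept all mice, their log2 fold changes were 0.50 to 0.70 (Hbb-bs), 0.43 to 0.61 (Hbb-bt), 0.33 to 0.54 (Hba-a1), 0.25 to 0.45 (Hba-a2) and 0.27 to 0.42 (Alas2). Among all genes, DESeq2 called 7. Leaving out 1 mouse gave 0 to 811 calls, 21 without the male V and 811 without the female V, and the lone mouse left in a group was then assumed to vary like the other group. Without the male V, Hba-a2 turned to -0.0145. With 1 mouse left out, the difference of V from NV was 0.19 to 0.91 for the log2 globin level, -0.44 to -0.0394 for log2 alpha to beta, -0.0685 to 0.27 for log2 Hbb-bs to Hbb-bt (-0.0685 without the male NV), -0.14 to 0.32 for log2 Hba-a1 to Hba-a2 (-0.14 without the male NV) and -0.0328 to 0.42 for the slope (-0.0328 without the male V). The cause of these turns was not tested. The replicate numbers coincide with sex and are not a stated pairing. With the replicate block, 0 genes were called and 413 rather than 248 had an unadjusted p under 0.05, the log2 globin difference stayed at 0.55, and deviations of same-numbered mice correlated at 0.38. With quintiles of all spots in place of parenchyma spots, a choice added after the data were seen, the mean fold of Alas2 was 8.42 in place of 5.04. With 2 mice per group, no exact permutation test could give a p below 0.33.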
